A study of Mus musculus with 10 samples.

Results

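The data were levels of 447 microRNA genes in wound-edge skin of diabetic mice, read from the features that a whole-transcriptome array places on microRNA genes. A gene was taken when the only gene named for its feature was a microRNA gene and its mean over all 10 arrays lay above 4.17 on the log2 scale. Of all features on the array, as many averaged above that value as below it. Where a gene had several features, the brightest was used. The table named 916 microRNA genes among 30702 genes, of which 447 lay above the threshold and 469 at or under it. The level of a gene was therefore fixed by how it was chosen and is given as a description, while the difference between the groups played no part in the choice.

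The mice were male, 11 weeks old and homozygous for the Leprdb mutation of the leptin receptor on a C57BL/6 background (db/db, BKS(D)-Leprdb/JOrlRj), and both groups carried it. Each mouse had 2 full-thickness punch wounds of 4 mm on its back. Each wound received 0.5 nmol of miR-132 mimic or of control mimic in 100 µl, injected at 4 points around the edge directly after wounding, together with an in vivo delivery reagent that both groups received. The wound edge was sampled 6 days after injury, with 5 mice and 5 arrays per group. No group went without an injection, so effects of wounding, diabetes, RNA injection or the reagent are shared by both groups.

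MicroRNAs are made from longer transcripts in which the future microRNA lies in a hairpin. Drosha cuts the hairpin out in the nucleus, Dicer1 trims it to a short duplex, and an Argonaute protein keeps 1 strand. The mature strand then finds messenger RNAs mainly through its seed, bases 2 to 8 from its 5′ end. Many hairpins lie in introns of protein-coding genes, so their primary transcript can be that of the host gene. In skin, microRNAs of keratinocytes, leukocytes and fibroblasts take part in proliferation, inflammation and matrix formation during repair. The labelling kit copies total RNA into cDNA and the features are those of microRNA genes, so a level here can hold primary transcript, hairpin and host transcript, and the values do not separate these from mature microRNA.

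Mature sequences were available for 345 of the 447 genes from RefSeq (GRCm38.p6), and those behind the results are printed 5′ to 3′ with the seed in capitals. The supplied microRNA and its chromosomal neighbour miR-212 share 1 seed, and 0 of these 345 genes encode a strand with it.
miR-132-3p: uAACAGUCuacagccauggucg
miR-212-3p: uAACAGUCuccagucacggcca
The next set comes from genes in the let-7 family, shown because it was the seed family with a member whose groups did not overlap.
let-7a-5p: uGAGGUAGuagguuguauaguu
let-7b-5p: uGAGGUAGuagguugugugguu
let-7d-5p: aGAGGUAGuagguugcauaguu
let-7f-5p: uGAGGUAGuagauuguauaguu
miR-98-5p: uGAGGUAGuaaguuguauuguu
let-7j: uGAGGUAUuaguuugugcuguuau
The seed of let-7j departs from that of the other 5 in its last letter.
The neighbours Mir23a, Mir27a and Mir24-2 encode 3 different seeds, and Mir29a and Mir29b-1 encode the same one.
miR-23a-3p: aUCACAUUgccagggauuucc
miR-27a-3p: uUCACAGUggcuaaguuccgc
miR-24-3p: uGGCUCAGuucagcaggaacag
miR-29a-3p: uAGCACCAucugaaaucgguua
miR-29b-3p: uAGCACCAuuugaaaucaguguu
The other genes with the smallest p-values or with separated groups encode unrelated seeds.
miR-3058-3p: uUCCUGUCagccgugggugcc
miR-6896-3p: uUUCUCUCucucaccuacaaac
miR-6926-5p: uCAGUGGGgugagggaugguga
miR-511-3p: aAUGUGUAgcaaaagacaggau
The last set shows repeated or very bright sequences. Those of miR-1187, miR-466k and miR-574-5p consist largely of alternating U and G, and the genes of miR-1954, miR-3473a and miR-703 stood at the upper signal limit.
miR-1187: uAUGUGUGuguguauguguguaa
miR-466k: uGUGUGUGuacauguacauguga
miR-574-5p: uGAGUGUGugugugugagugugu
miR-1954: aCUGCAGAgugagacccuguu
miR-3473a: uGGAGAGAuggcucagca
miR-703: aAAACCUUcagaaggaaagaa

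Most of the microRNA genes were dim. Of the 447, 198 had a mean level from the threshold to 5, 122 from 5 to 6, 88 from 6 to 8 and 39 above 8, and the median was 5.14. The nearest genes above the threshold were Mir1936, Mir6380 and Mir6968 at 4.171 each. Just below it lay Mir7086 and Mir7088 at 4.169 each and Mir31, a keratinocyte microRNA gene, at 4.166, so the border separates genes of nearly equal level. The array's background features, designed to match no transcript, averaged 2.48 to 5.14 depending on their GC content, with 2.90 at 12 G or C bases out of 25. Of 324 genes with a hairpin sequence, 0 lay at or under the background feature of the nearest GC content and 311 lay over 1 unit above it. The 0 was fixed by the threshold of 4.17, as the background features matched to these hairpins averaged at most 3.999. For hairpins matched to 11 (3.02) to 17 (2.57) G or C bases, lying over 1 unit above was fixed as well. Among microRNA genes at or under the threshold, 100 of 409 lay over 1 unit above that background.

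Some of the brightest microRNA genes were read by features located away from the gene. The feature names give a chromosome, and it matched the chromosome of the gene in RefSeq for 99.76% of 30086 features of other genes. For 425 microRNA genes the feature lay on the gene's own chromosome, with a median level of 5.07 and 24 genes above 8. For 20 it lay on another chromosome, with a median of 11.58 and 14 genes above 8, and for 2 the place was not known. Counting every microRNA feature, bright or dim, the median was 10.29 for 34 features on another chromosome and 4.12 for 917 on the gene's own. Both kinds existed for 24 of the genes, and the feature elsewhere was the brighter one for 18 of them. Where either feature lay under the threshold, this order was fixed by how the gene was chosen. That was so for Mir669e, Mir325, Mir1950 and Mir378c, brighter elsewhere, and for Mir1970 and Mir466p, brighter on their own chromosome. Mir3473a measured 19.93 elsewhere and 4.71 on its own chromosome. Mir669e measured 16.58 and 3.72, Mir3471-1 18.27 and 6.51, and Mir669h 14.38 and 4.75. Signals of different features also depend on their probes, so these levels describe features and are not amounts of RNA.

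**Figure D1:**
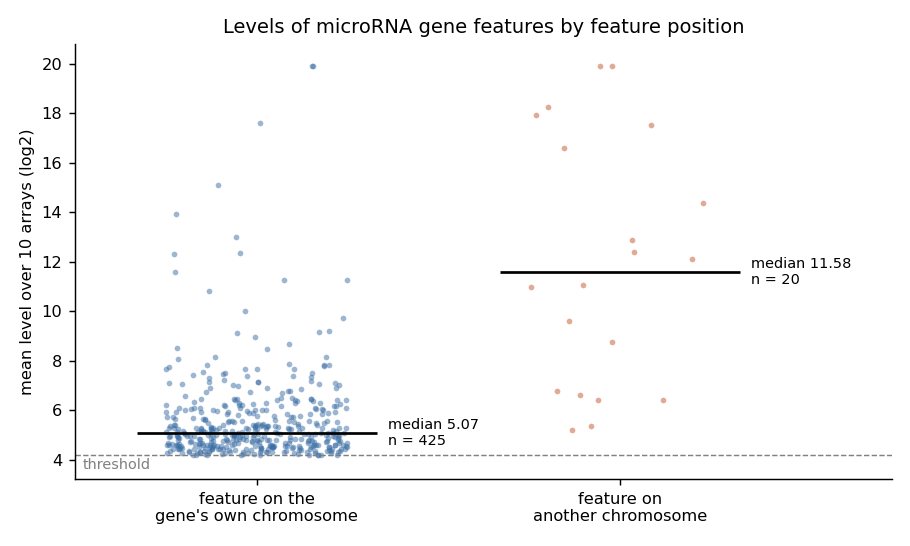
Each point is the mean level of 1 microRNA gene over 10 arrays (log2), grouped by whether its feature lies on the gene's own chromosome (425 genes) or on another (20 genes), with medians as bars and the threshold of 4.17 dashed. The features on another chromosome have a median of 11.58 against 5.07, and points are spread sideways at random.

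The genes at the top of the range gave little information on the groups. Mir1954, Mir3470b, Mir3473a and Mir703 stood at 19.93 on all 10 arrays, the largest value that the table holds, so a difference in these 4 could not be seen. Below them came Mir6240 (19.34), Mir3471-1 (18.27), Mir3473f (17.94), Mir6236, Mir1191 (17.53), Mir669e, Mir3472 (15.09), Mir669h (14.38), Mir1195, Mir3470a and Mir467f (12.90). On Mir1191 the miR-132 arrays measured 18.27, 15.94, 18.68, 17.44 and 16.57 and the control arrays 18.11, 17.25, 17.76, 17.17 and 18.07. The miR-132 arrays thus spread on both sides of the controls. Some hairpins share sequence with many other loci. Runs of 16 bases of the hairpin, on either strand, were searched in 32851 RefSeq promoter windows outside the gene's own locus. At least 10 windows held such a run for 6 of 17 hairpins above a level of 8, 6 of 63 from 6 to 8, 3 of 84 from 5 to 6 and 5 of 160 below 5. Mir1187 had 197 such windows (0.6% of all), Mir466k 177 (0.539%) and Mir1954 141 (0.429%). A match is a description of the letters and does not show that a probe bound there.

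Several microRNA genes cannot be told apart on this array. In 8 sets, 32 genes had identical values on all 10 arrays, so the 447 genes hold 423 distinct profiles. The largest set held 9 Mir669a genes, followed by 5 Mir466b genes, 5 Mir467a genes and the 4 genes at the signal limit. Genes named Mir297, Mir466, Mir467 and Mir669 made up 73 of the 447, a group formed after its values were seen. RefSeq places 63 of these 73 inside the gene Sfmbt2 on chromosome 2, whose intron holds a long series of related hairpins, while the feature of Sfmbt2 itself averaged 3.70, under the threshold. Their levels ran from 4.18 to 16.58 with a median of 5.37, against 5.03 for the other 374 genes. A further 222 features named both a microRNA gene and another gene and were not used, 180 of them above the threshold.

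Skin and wound microRNAs known from the literature were mostly under the threshold or without a feature of their own. Of 21 listed keratinocyte microRNA genes, 16 had a feature and 5 passed the threshold. They were Mir27a (5.00), Mir34a (4.93), Mir23a (4.90), Mir24-2 (4.66) and Mir125b-2 (4.54), whereas Mir203, a driver of keratinocyte differentiation, measured 3.32 and Mir200c, which maintains epithelial character, 4.00. Of 19 listed leukocyte names, which include the host gene Mir142hg, 9 had a feature and 6 passed. These ran from Mir511 (6.67) through Mir142 (5.10), Mir342 (5.10), Mir181a-2 (4.75) and Mir155 (4.51) to Mir146 (4.23). Of 24 stromal and endothelial genes 16 had a feature and 5 passed, with Mir29b-1 (5.16) and Mir29a (4.88) ahead of Mir221, Mir218-1 and Mir99a. Of 14 let-7 genes all had a feature and 7 passed, among them Mirlet7d (9.16) and its chromosome 13 neighbour Mirlet7f-1 (4.94). Muscle microRNA genes passed for 1 of 7 with a feature, hypoxia and damage genes for 2 of 6 and the Mir17 family for 0 of 6. The muscle list held Mir486a and Mir486b, without a feature, while Mir486 had one under that name and passed at 4.31. A feature under the threshold says nothing about the amount of the mature microRNA.

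In the comparison of miR-132 with control wounds, no microRNA gene passed limma's adjusted threshold, and the genes lay on both sides of 0. Mir3058 averaged 1.37-fold lower with miR-132, and Mir6896 and Mirlet7a-1 averaged 1.47-fold and 1.27-fold higher. These were the 3 genes whose groups did not overlap. Over all 17645 genes tested, 0 (0.0%) had an adjusted p under 0.05, and the smallest of these adjusted values was 0.598. An unadjusted p under 0.05 was found for 37 of the 447 microRNA genes (8.28%), against 8.07% of all genes tested. Of the 37, 15 averaged lower, against 5.6% of all genes, and 22 higher, against 2.47%. Counted as distinct profiles, the number was 29 of 423 (6.86%), 7 of them lower. The groups did not overlap for 3 of 447 genes (0.671%), against 0.929% of all genes. The shares of microRNA genes at an unadjusted p under 0.05 and with separated groups were thus near those of all genes.

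Of the 447 genes, 216 averaged lower (48.3%, against 53.6% of all genes tested), 222 higher and 9 equal, with a median difference of 0 on the log2 scale against -0.016 for all genes tested. The middle of the range, from the 10th to the 90th percentile, ran from -0.29 to 0.29. The split of the 37 differed by level. From the threshold to 5, 3 microRNA genes were lower and 11 higher at an unadjusted p under 0.05 (7.07% of 198), and all genes of that level gave 56 and 272 (6.88% of 4764). From 5 to 6 the microRNA genes gave 9 and 7 (13.11% of 122), and all genes 178 and 104 (7.49% of 3766). The 9 lower ones in that band are the Mir669a genes with identical values, 1 measurement. From 6 to 8 the microRNA genes gave 2 and 2 (4.55% of 88), and all genes 433 and 42 (9.78% of 4857). Above 8 they gave 1 and 2 (7.69% of 39), against 322 and 17 (7.96% of 4258). Above a level of 6, genes at this p were thus mostly lower over all genes tested, and the few such microRNA genes were not. By average alone, 45 of 88 microRNA genes from 6 to 8 were lower (51.1%, all genes 63.6%). Above 8, 24 of 39 were (61.5%, all genes 65.3%). When every array was centred on its median, 34 microRNA genes at an unadjusted p under 0.05 were lower and 15 higher. In that setting 288 of 447 averaged lower, and the median of all genes moved to -0.10. After a further quantile normalization the split was 17 and 18. The balance of directions among the microRNA genes therefore moved with the scaling.

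The arrays themselves differed in ways that touch dim genes. The median level of the 447 genes was 5.06 to 5.23 on control arrays and 4.95 to 5.39 on miR-132 arrays, with the highest on miR-132 replicate 2. The span between the 10th and 90th percentile of an array was 4.81 to 5.03 in controls and 4.41 to 4.92 with miR-132, narrowest on replicates 2 and 5. Spike-in hybridisation controls stood at 10.43 to 10.61 in controls and 10.57 to 10.98 with miR-132. Without miR-132 replicates 2 and 5, 56 microRNA genes had an unadjusted p under 0.05, 44 of them lower and 12 higher. That is 12.53% of the 447, against 5.76% of all genes in the same setting, and 34 of the 56 were Mir297, Mir466, Mir467 or Mir669 genes, many with identical values. Without replicate 2 alone the split was 33 lower and 13 higher. Markers of cell types of skin had mean differences of -0.57 for skeletal muscle, -0.33 for leukocytes, -0.20 for endothelium, -0.18 for fibroblasts, 0.40 for adipocytes, 0.28 for mast cells and 0.15 for sebaceous gland. No marker of these types had an unadjusted p under 0.05. Keratinocyte markers had a mean difference of -0.18, and Trp63 and Dsp among them had an unadjusted p under 0.05. Awat2, Mc5r and Mogat1 of the sebaceous gland and Tyr of melanocytes lay under the threshold. The part of array properties and cell types in the results was not tested.

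**Figure D2:**
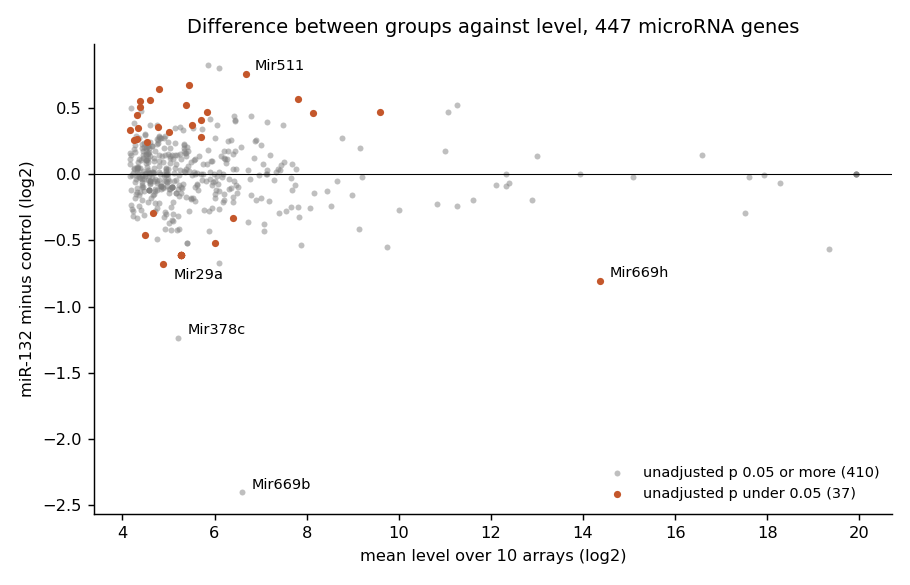
Each point is 1 of 447 microRNA genes, with its mean level over 10 arrays (log2) on the horizontal axis and its difference, miR-132 minus control (log2), on the vertical axis. The 37 genes at an unadjusted p under 0.05 (orange) lie on both sides of 0, and the points farthest from 0, Mir669b and Mir378c, are not among them.

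Mir3058, a hairpin inside Nudt4, had the smallest p of the microRNA genes. On the miR-132 arrays it measured 4.46, 4.19, 4.44, 4.28 and 3.98, and on the control arrays 4.94, 4.56, 4.67, 4.67 and 4.80. Every miR-132 array lay below every control array. The difference was -0.46 ± 0.11 (SE, n = 5 per group), with limma's unadjusted p of 0.0015 and adjusted p of 0.598. Its level is close to the threshold, so it is read from weak signal.

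Among genes that averaged lower, the next by p were the 9 Mir669a genes with identical values (Mir669a-4 to Mir669a-12), which count as 1 measurement. They measured 4.88, 5.34, 4.99, 4.53 and 5.15 on the miR-132 arrays and 5.44, 5.80, 5.11, 5.64 and 5.95 on the control arrays. The groups overlapped through control replicate 3, which lay below miR-132 replicates 2 and 5. The difference was -0.61 ± 0.18 (SE), with limma's unadjusted p of 0.008 and adjusted p of 0.598. Of the 73 Mir297, Mir466, Mir467 and Mir669 genes, 60 averaged lower and 13 higher, with a median of -0.12. Of all genes tested, 53.6% averaged lower. The 73 genes hold 52 distinct profiles, and every set of identical genes among them averaged lower, so the 60 counts some readings repeatedly. An unadjusted p under 0.05 belonged to 10 of the 73, the 9 identical Mir669a genes and Mir669h. The count of lower genes was 55 to 64 under the scaling alternatives, but 37 of 73 with the hybridisation controls as a covariate.

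Mir669h was bright, on a feature away from its gene. It measured 13.79, 14.43, 13.43, 14.29 and 13.93 with miR-132 and 15.55, 15.25, 13.97, 14.12 and 15 in controls, a difference of -0.80 ± 0.33 (SE, unadjusted p of 0.0357). Control replicates 3 and 4 lay within the miR-132 range. Mir6959, chosen after its values were seen, measured 6.25 ± 0.12 with miR-132 and 6.58 ± 0.22 in controls (SD, n = 5 each). Mir341, a gene of the imprinted region of chromosome 12, chosen in the same way, measured 5.75 ± 0.35 and 6.27 ± 0.35 (SD, n = 5 each).

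Among genes that averaged higher, Mir6926, a hairpin inside Sgsm2, had the smallest p. It measured 5.79, 5.89, 5.63, 5.28 and 5.58 with miR-132 and 5.25, 5.09, 5.01, 4.88 and 5.33 in controls. The groups overlapped through miR-132 replicate 4 and control replicate 5. The difference was 0.52 ± 0.12 (SE, n = 5 per group), with limma's unadjusted p of 0.0019 and adjusted p of 0.598.

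Mir6896, a hairpin inside the cytoskeletal linker gene Dst, measured 4.65, 5.24, 4.88, 4.60 and 5.03 with miR-132 and 4.18, 4.53, 4.37, 4.47 and 4.05 in controls. The groups did not overlap, with miR-132 replicate 4 just above control replicate 2. The difference was 0.56 ± 0.14 (SE), with limma's unadjusted p of 0.0026 and adjusted p of 0.598.

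The rest of the 10 highest by p had differences from 0.24 to 0.76. Mir6934 averaged 0.37 higher, Mir92b 0.36, Mir6406 0.41, Mir6381 0.24, Mir5108 0.45 and Mir463 0.50, each with an adjusted p of 0.598. Mir92b belongs to the family of the Mir17 clusters by its seed. It measured 4.85, 4.90, 5.35, 4.76 and 4.94 with miR-132 and 4.55, 4.64, 4.87, 4.52 and 4.42 in controls, where control replicate 3 lay above 2 of the miR-132 arrays.

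The largest differences had the widest spread. Of the 447 genes, 2 averaged at least 2-fold apart, both named here after their values were seen. Mir669b measured 6.36, 6.53, 8.47, 3.09 and 2.57 with miR-132 and 8.41, 7.15, 10.03, 6.88 and 6.57 in controls, a difference of -2.40 ± 1.16 (SE, unadjusted p of 0.0665). Replicates 4 and 5 of miR-132 lay more than 3 units below the other 3. Replicate 3 was the one miR-132 array inside the control range, and the remaining 4 lay below every control array. Mir378c measured 5.67, 2.51, 2.61, 5.94 and 6.23 with miR-132 and 4.85, 6.60, 5.94, 5.52 and 6.24 in controls (-1.24 ± 0.80, SE, unadjusted p of 0.155). Here replicates 2 and 3 were low and the other 3 lay within the control range. Both genes were read by features on another chromosome. The SD between arrays had a median of 0.26 (control) and 0.32 (miR-132) over the 447 genes, against 0.17 and 0.23 over all genes tested.

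**Figure D3:**
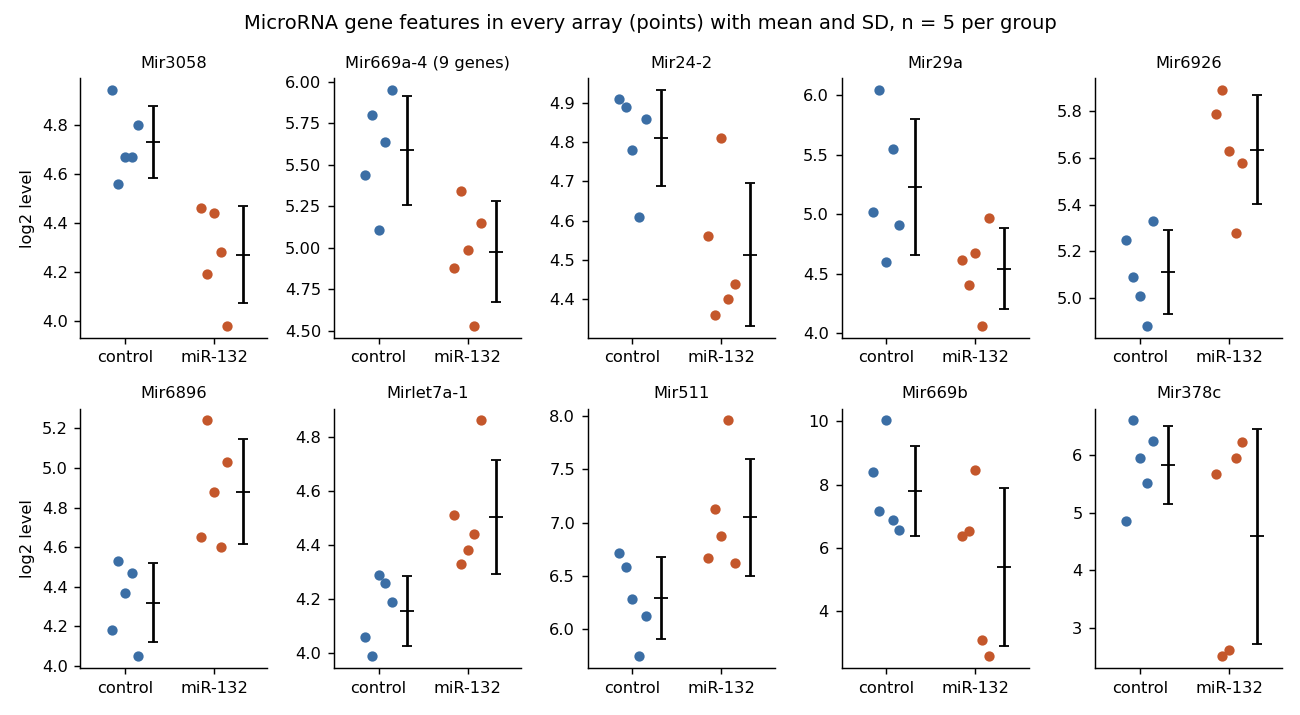
Each panel shows the log2 level of 1 microRNA gene on the 5 control arrays (blue) and the 5 miR-132 arrays (orange), with the group mean and SD as a black bar beside the points. Axes are scaled per panel and do not start at 0. The groups separate for Mir3058, Mir6896 and Mirlet7a-1, and Mir669b and Mir378c each have 2 low miR-132 arrays.

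Of the let-7 genes, known as brakes on proliferation in differentiated tissue, 5 averaged higher and 2 lower. Mirlet7a-1 measured 4.51, 4.33, 4.38, 4.44 and 4.86 with miR-132 and 4.06, 3.99, 4.29, 4.26 and 4.19 in controls. The groups did not overlap, with miR-132 replicate 2 just above control replicate 3. The difference was 0.35 ± 0.11 (SE, n = 5 per group), with limma's unadjusted p of 0.0089 and adjusted p of 0.598. Its neighbours on chromosome 13 gave 0.20 ± 0.29 for Mirlet7d and 0.004 for Mirlet7f-1. Mirlet7d measured 10.22, 8.61, 8.87, 8.92 and 9.65 with miR-132 and 9.10, 9.23, 9.16, 9.08 and 8.72 in controls, so that the groups overlapped widely. The remaining let-7 genes gave 0.10 for Mirlet7a-2, 0.02 for Mir98, -0.03 for Mirlet7b and -0.28 for the gene of let-7j.

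Of the keratinocyte microRNA genes, 4 averaged lower and 1 higher, and Mir24-2 was the one with an unadjusted p under 0.05. Mir24-2, which encodes miR-24, measured 4.56, 4.36, 4.81, 4.4 and 4.44 with miR-132 and 4.91, 4.89, 4.78, 4.61 and 4.86 in controls. Replicate 3 of miR-132 was the 1 array of its group inside the control range. The difference was -0.30 ± 0.10 (SE), with limma's unadjusted p of 0.0113 and adjusted p of 0.598.

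The genes Mir23a, Mir27a and Mir24-2 are made from 1 primary transcript on chromosome 8. Mir27a measured 4.43, 5.04, 4.91, 4.55 and 5.16 with miR-132 and 5.12, 5.27, 4.88, 4.99 and 5.67 in controls, a difference of -0.37 ± 0.18 (SE, unadjusted p of 0.0702). Mir23a measured 4.79, 4.89, 4.97, 4.14 and 4.92 with miR-132 and 4.67, 5.64, 4.65, 5.13 and 5.23 in controls, a difference of -0.32 ± 0.22 (SE, unadjusted p of 0.176). All 3 averaged lower, with overlap in each, while Mir3074-2, another gene within 10 kb whose strand was not compared, averaged 0.20 higher. Of the others on the list, Mir34a averaged -0.29 and Mir125b-2 0.21. The keratinocyte markers of the samples were present, with Krt1 at 19.93 in both groups. Of the 6 markers 4 averaged lower and 1 higher, and their mean log2 level per array ranged from 17.59 to 17.88 in controls and 17.30 to 17.89 with miR-132. The keratins stood at or near the signal limit, which left this mean little room to move. Of the other markers, Trp63 averaged -0.68 and Dsp -0.53 (limma's unadjusted p of 0.0258 and 0.0095). The part of the keratinocyte markers in these differences was not tested.

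Of the leukocyte microRNA genes, 3 averaged lower and 3 higher. Mir511, which lies inside the macrophage mannose receptor gene Mrc1, measured 6.67, 7.13, 6.88, 7.96 and 6.62 with miR-132 and 6.72, 6.59, 6.29, 5.75 and 6.13 in controls. Replicate 4 of miR-132 was highest, and control replicate 1 lay above 2 of the miR-132 arrays. The difference was 0.76 ± 0.27 (SE), with limma's unadjusted p of 0.0206 and adjusted p of 0.598. Mir142, a gene of all blood cell lineages, measured 4.46, 4.66, 5.07, 5.17 and 5.27 with miR-132 and 5.03, 6.21, 5.33, 4.91 and 4.93 in controls, a difference of -0.36 ± 0.26 (SE, unadjusted p of 0.208). Control replicate 2 was its highest array. Mir146 gave -0.32, Mir342 -0.21, Mir155 0.01 and Mir181a-2 0.37. All 6 leukocyte markers measured averaged lower with miR-132, their mean log2 level per array ranging from 11.38 to 12.49 in controls and 11.24 to 11.96 with miR-132, and the part of cell numbers was not tested. In whole tissue, fewer cells of a type and less RNA per cell cannot be told apart.

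Of the stromal and endothelial genes, 3 averaged lower and 2 higher. Mir29a, whose product represses collagen messenger RNAs, measured 4.61, 4.4, 4.67, 4.06 and 4.97 with miR-132 and 5.02, 6.04, 4.60, 5.55 and 4.91 in controls. The groups overlapped through control replicates 3 and 5. The difference was -0.68 ± 0.27 (SE, unadjusted p of 0.0307, limma's adjusted p of 0.598). Mir29b-1, beside it on chromosome 6 and with the same seed, gave 0.08 ± 0.12. The remaining values were -0.26 for Mir99a, -0.08 for Mir218-1 and 0.01 for Mir221. The muscle gene Mir133a-1 averaged -0.30 ± 0.20 (SE) beside skeletal muscle markers, of which 4 of 4 averaged lower, with a mean log2 level per array of 10.76 to 13.44 in controls and 10.15 to 13.68 with miR-132. The hypoxia and damage genes Mir34a and Mir34b gave -0.29 and 0.19.

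Neighbouring genes often differed in direction. Outside the families in Sfmbt2, 48 microRNA genes with features on their own chromosome fell into 15 groups of neighbours no more than 10 kb apart. Strands were not compared, so the genes of a group need not share a transcript. All genes of a group averaged in 1 direction in 5 of the 15 groups. The largest group, 14 genes of the imprinted region on chromosome 12 that ran from Mir299b to Mir453, had 7 genes averaging lower, with differences from -0.30 to 0.40. A second group from the same region, of 5 genes, had 2 lower. Genes that share a seed varied as well, though most genes of each set named here averaged in 1 direction. Of 12 seeds found in at least 3 genes, AGCAGCA of the miR-15 and miR-16 family covered 6 genes, 5 of them averaging lower, from -0.27 to 0.26. The let-7 seed GAGGUAG covered 5 genes from -0.03 to 0.35, and ACAUUCA of the miR-181 family covered Mir181a-2, Mir181c and Mir181d, from 0.09 to 0.37.

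Host genes gave a second reading of the same stretch of genome. For 150 microRNA genes with a feature on their own chromosome, a host gene on the same strand was measured. The microRNA gene and its host averaged in the same direction in 88 of the 150 pairs. That count includes Mir1954, equal in both groups at the signal limit, beside its host Eng at -0.25. At an unadjusted p under 0.05 stood 12 of the microRNA genes (8.0%) and 31 of the hosts (20.7%, 28 of them lower), against 8.07% of all genes tested, and both of the pair in 2 cases. In one of these, Mir6959 and Sbf1, a gene of the myotubularin family, averaged -0.33 each. In the other, Mir6910 averaged 0.67 ± 0.26 (SE) and its host Ptbp1, a splicing repressor, -0.48 ± 0.18. Mir6910 measured 5.81, 5.76, 6.43, 5.15 and 5.81 with miR-132 and 4.56, 4.73, 5.18, 5.53 and 5.59 in controls, and replicate 4 of miR-132 fell between the control values.

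Mir3058, Mir6926 and Mir6896, which had the smallest p among microRNA genes with a host, stood beside hosts with small differences. The next by p, Mir6959, stood beside Sbf1 at -0.33, as given above. Nudt4, host of Mir3058, gave -0.01 ± 0.23 (SE) at a level of 12.28. Sgsm2, host of Mir6926, gave -0.01 ± 0.06 at 5.09, and Dst, host of Mir6896, -0.09 ± 0.25 at 9.34. Mrc1, host of Mir511, gave 0.20 ± 0.44 at 14.76. Pde2a, a cyclic nucleotide phosphodiesterase that hosts Mir139, gave -0.06 ± 0.11, while Mir139, chosen after its values were seen, averaged 0.46 ± 0.18. In other pairs the host had an unadjusted p under 0.05 and the microRNA gene did not, though its difference was larger in the pairs named here. Rgs12, a regulator of G protein signalling, gave -0.47 ± 0.11 (unadjusted p of 0.0014) with its Mir3097 at -0.53 ± 0.27 (unadjusted p of 0.0757). Cmip gave -0.48 ± 0.18 and its Mir7078 0.82 ± 0.39. The difference between a microRNA gene and its host was not tested.

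**Figure D4:**
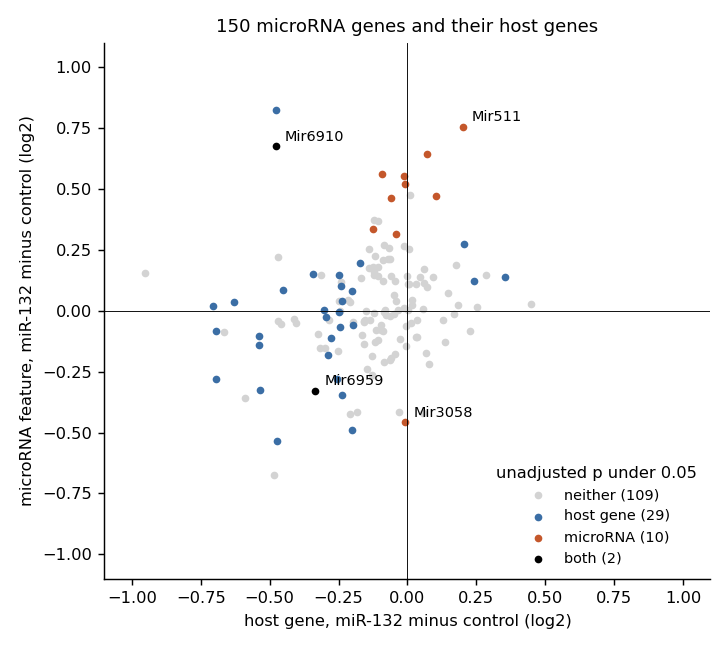
Each point is 1 of 150 microRNA genes, with the difference of its host gene (miR-132 minus control, log2) on the horizontal axis and its own on the vertical axis. Colours mark which of the pair had an unadjusted p under 0.05 (host in 29 pairs, microRNA in 10, both in 2), and most coloured points lie near one axis.

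Genes that make and use microRNAs averaged mostly lower with miR-132, none past adjustment. Of 59 listed genes, 47 were tested, of which 36 averaged lower and 10 higher, with a median of -0.096 against -0.016 for all genes tested. At an unadjusted p under 0.05 stood 6 of the 47, all lower, where 5.6% of all genes were, and 0 had an adjusted p under 0.05. The features of these genes had a median level of 7.49, and 63.6% of all genes tested from 6 to 8, and 65.3% above 8, averaged lower. After a further quantile normalization, 28 of the 47 averaged lower, 1 of them at an unadjusted p under 0.05. With every array centred on its median, 44 of the 47 averaged lower, so this count moved with the scaling.

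In the processing steps, Drosha averaged -0.11 ± 0.09 (SE) and Dicer1 -0.15 ± 0.10, and the exporter gene Xpo5 -0.15 ± 0.12. Khsrp, which binds let-7 precursors, averaged -0.27 ± 0.12 (unadjusted p of 0.0476), Srrt, a partner of the cap-binding complex, -0.24 ± 0.13, and Dis3l2, which degrades tailed let-7 precursors, -0.19 ± 0.09. Tut7, which adds uridines to precursors, averaged -0.34 ± 0.12 (unadjusted p of 0.0188), and its relative Tut4 0.05 ± 0.10.

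In the silencing complex, Ago2, the Argonaute that can slice its target, averaged lower (-0.50 ± 0.13, SE, limma's unadjusted p of 0.0028 and adjusted p of 0.598). Ago1 averaged -0.15 ± 0.09, Ago3 -0.07 ± 0.07 and Ago4 -0.10 ± 0.12. Ajuba, an adaptor protein of the LIM family that binds Argonautes, averaged -0.39 ± 0.14 (unadjusted p of 0.0235). Zswim8, which marks Argonaute for degradation during target-directed microRNA decay, averaged -0.23 ± 0.09 (unadjusted p of 0.0245), and Pan3, of a deadenylase complex, -0.26 ± 0.11 (unadjusted p of 0.0392). Of the keratinocyte markers, Trp63, a regulator of stratified epithelium, averaged -0.68 and the desmosome gene Dsp -0.53 (unadjusted p of 0.0258 and 0.0095). The keratins gave -0.20 for Krt5, -0.02 for Krt14, 0.37 for Krt10 and 0 for Krt1, all at or near the signal limit. Their part in the pathway differences was not tested.

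**Figure D5:**
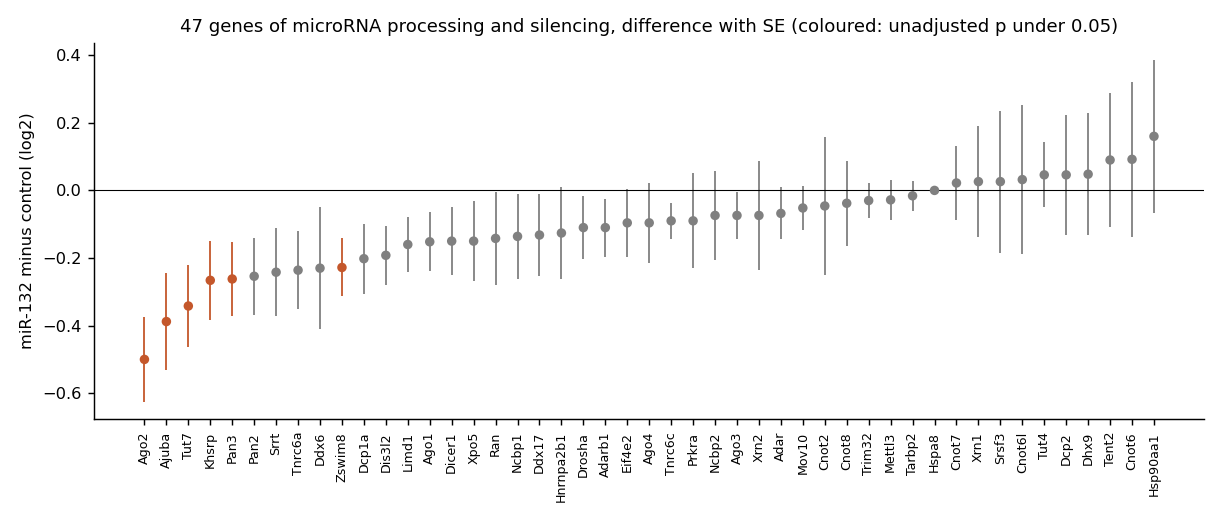
Points are the differences, miR-132 minus control (log2), of 47 genes of microRNA processing and silencing, ordered by size, with standard errors as lines. The 6 genes at an unadjusted p under 0.05 (orange) are all below 0, from Ago2 at -0.50 to Zswim8 at -0.23.

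The supplied microRNA did not appear on the feature of its own gene. Mir132 measured 3.03, 3.50, 3.09, 3.24 and 4.03 with miR-132 and 2.92, 3.62, 3.17, 3.15 and 3.21 in controls, or 3.38 ± 0.41 and 3.21 ± 0.25 (SD, n = 5 each). One miR-132 array, replicate 5, lay above the control range. Mir212 measured 3.08 ± 0.17 with miR-132 and 3.12 ± 0.19 in controls. Both lay under the threshold and so outside the 447 genes. A feature designed on the gene's transcript need not read a short synthetic RNA, so these values do not show whether the mimic was present on day 6.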

How the data were processed

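Total RNA of 10 wound edges (150 ng each) was measured on Affymetrix mouse Clariom D arrays. The deposited values were made with RMA (background correction, normalization between arrays, summary over probes) in Affymetrix Expression Console 1.4, per the submitters' processing notes. The deposited values were taken as log2 signal from their range and shared upper limit of 19.93, the log2 of 1000000, since the labels used here do not state the scale. A genome build was not given in the sources used here.

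Of 72688 features, 31258 named 1 gene after repeated spellings and RefSeq synonyms were merged (159 of the 447 microRNA genes had 2 or more spellings). Mirt1 and Mirt2, which are not microRNA genes, were left out. Groups were compared with limma 3.58.1 in R 4.3.3 (lmFit, eBayes with an intensity trend, two-sided, no covariates) on 17645 genes above 4.17, with Benjamini-Hochberg adjustment over all of them. In simulated data for this comparison with 17645 genes and independent noise of the same spread, the fit called 70 of 100 genes changed 2-fold, 89 of 100 changed 4-fold and 2 unchanged ones. The changed genes were drawn from all 17645 and no differences between arrays were simulated. These rates therefore do not describe the 447 microRNA genes, whose SD between arrays was larger. Differences are miR-132 minus control with moderated SE. The labels give 5 mice per group, and the number of arrays limits the precision.

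The genes and lists were chosen with earlier results of these data known. Named were the 15 brightest genes, the 10 with the smallest p in each direction, those without overlap, those nearest the threshold, list members, their hosts, and the 4 pathway genes per list with the smallest p. Alternatives covered level filter, features, scaling, prior variance, array weights, replicate block, hybridisation covariate, host genes and left-out arrays. Sequences came from RefSeq GRCm38.p6. RefSeq positions served to find hosts and neighbours, to place genes inside Sfmbt2 and to leave out a hairpin's own locus. RefSeq chromosomes were compared with those in the feature names.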

Additional observations from a re-analysis of the deposited data

Results flagged for a closer look

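Mir23a on miR-132 replicate 4 stood at 4.14, far below the 4.79 to 4.97 of the other miR-132 arrays. The gap was 0.783 of the group's range, above Dixon's 95% critical value of 0.71 for 5 samples. It was the 1 such array among 90 groups of 5 values examined, and chance alone gives about 1 in 20. The groups examined did not cover every named gene. Among genes left out, Mir6236 stood at 17.5 on miR-132 replicate 5 and at 17.62 on the other miR-132 arrays. Mir3470a stood at 13.64 on miR-132 replicate 3 and at 12.89 to 12.95 on the others of that group.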

How the results depend on the processing

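Differences were recalculated 791 times with other settings for 40 genes named for their difference, as pathway genes or as the supplied pair. None was seen to change direction or pass adjustment. Mir132 and Mir212, under the level filter, were refitted only without that filter, the same fit they were compared with. Their direction was therefore not checked. Most of the other genes were chosen for a small p, and 9 are the identical Mir669a genes, so that choice favoured stable directions. Of 37 further microRNA genes named for their level, from the lists or with their values, none of which passed adjustment, 23 turned in at least 1 setting, among them Mir1191, Mir3471-1, Mir3473f, Mir467f and Mir669e. With a threshold 1 log2 unit higher, 20 microRNA genes had an unadjusted p under 0.05 and 112 of 216 averaged lower. Without miR-132 replicates 2 and 5, the counts at an unadjusted p under 0.05 were 56 microRNA genes (12.53%, all genes 5.76%) and 3 pathway genes. Pathway genes numbered 1 after a further quantile normalization and 2 with a replicate block. Split by host, 13 of 185 genes with a host (85 lower) and 10 of 127 without (52 lower) had an unadjusted p under 0.05, as fewer genes were counted. Both further alternatives, features on the own chromosome (35 of 425) and distinct profiles (29 of 423), were added after seeing the data. Leaving out single arrays gave 26 to 50 microRNA genes at an unadjusted p under 0.05, 198 to 242 averaging lower, medians of -0.03 to 0.02 and 2 to 9 pathway genes. Without miR-132 replicate 2 the 46 split into 33 lower and 13 higher. Genes past adjustment numbered 0 to 55, with 55 without miR-132 replicate 3, of which 0 were microRNA genes. The cause was not tested. With the replicate number as a block, 47 microRNA genes (10.51%, all genes 7.2%) had an unadjusted p under 0.05. Same-numbered arrays correlated by -0.03 to 0.17 and 2 of 5 correlated best with their own number, so the numbers were not taken as pairs.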
